A study of Mus musculus with 7 samples.

Results

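Costameres are the protein assemblies that tie the Z-discs of the outer myofibrils to the membrane of a muscle cell and, through it, to the basement membrane. They hold the dystrophin complex, which links cytoskeletal actin to laminin through dystroglycan, and the integrin complex, in which talin, vinculin, filamin and the ILK-PINCH-parvin proteins join integrins to actin. Inherited loss of dystrophin, sarcoglycans, desmin, vinculin or filamin C is a known cause of cardiomyopathy. The 41 genes described here were listed by name for these roles, and all 41 were found among the 20927 genes of the count table. The genotypes were compared over 13894 genes that reached 10 counts in 3 or more libraries, and these include all 41.

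RNA came from the left ventricle of 7 mice, 1 library each, with no treatment named: 3 were WT (replicates 1, 3 and 4) and 4 were homozygous for the titin missense variant A178D (replicates 1 to 4). The labels give the strain as C57BL/6J for both genotypes. The allele was made by gene editing in C57BL/6N embryonic stem cells and crossed to C57BL/6J, and WT littermates served as controls. Age and sex are not in the labels. The Y-linked gene *Ddx3y* was present in all 7 hearts, between 75.2 and 119 CPM (counts relative to library size, with the TMM factors of edgeR). The libraries held between 33080675 and 54245530 counts. Among counts from 1 to 20, between 17.6 and 20.3% were odd, depending on the library. Most low counts were thus even, as when both ends of a fragment are counted, and a value rests on fewer molecules than its counts. The 8 cardiomyocyte markers, led by *Myh6*, summed to between 95059 and 104504 CPM in all hearts, as the tissue label implies. *Ttn*, on chromosome 2 from 76703980 to 76982547 (GRCm38), carries the variant as a base change. Its level averaged 6659 ± 521 CPM (SD, n = 3) in the WT group and 5528 ± 1072 CPM (SD, n = 4) in the A178D group. The log2 fold change was -0.27 (edgeR adjusted p = 0.287), and counts per gene cannot check the genotype labels.

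WT replicate 1 and A178D replicate 4 stood apart from the other libraries in how their counts varied with transcript length. Per doubling of length, the log2 level relative to the mean of all libraries changed by 0.081 in WT replicate 1 and by -0.134 in A178D replicate 4, and by between -0.014 and 0.023 in the other 5 libraries. The costamere genes have long transcripts, with a median of 5267 nt against 3174 nt over all tested genes, and 34 of the 41 lie above that median. Of the 41 members, 20 had their lowest and 8 their highest CPM in A178D replicate 4. The highest CPM was in WT replicate 1 for 11 members and in WT replicate 3 for 10. Results are therefore also given with per-library offsets that remove the trend with transcript length and GC content, and without both libraries, an alternative chosen after seeing the data.

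Of the 41 costamere genes, 1 (2.44%) was called lower in A178D hearts, and its call depended on which hearts were included. A gene that was not called may still differ. Filamin A (*Flna*), an actin crosslinker that binds integrin tails in many cell types, fell in A178D hearts to 0.744 of its WT level. No member was called higher. Called means a Benjamini-Hochberg adjusted p under 0.05 by edgeR (quasi-likelihood) over all tested genes, which held for 1.31% of these genes in the lower direction and for 1.04% in the higher direction. With an unadjusted p under 0.05, 7 members (17.1%) were lower and 3 (7.32%) higher, beside 8.81% and 7.93% of all tested genes. The higher count of members was 6 without WT replicate 1 (beside 7.82% of all genes in that fit), 0 without WT replicate 3 (6.08%) or A178D replicate 1 (6.22%), and 1 without WT replicate 4 (6.42%) or A178D replicate 2 (7.42%). It was 1 with the replicate block (6.47%), 5 with the offsets without (8.13%) or with the block (8.22%), and 7 without both WT replicate 1 and A178D replicate 4 (9.41%). The lower count was 4 without WT replicate 1 (7.69%) and between 5 and 9 in every other alternative, where between 6.44 and 10.4% of all genes were lower. The genotypes had no overlap between hearts in 6 members (14.6%) with lower and 1 member (2.44%) with higher A178D values, where 8.52% and 7.61% of all tested genes were so separated. No test of the list was made.

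Most members differed little between the genotypes. In 34 of the 41 the log2 fold change was under 0.2 in size, and the whole range ran from -0.56 to 0.41, with a median standard error of 0.081. The log2 fold change was below 0 in 29 members and above 0 in 12, where 49.5% of all tested genes were below and 50.5% above. The median over the members was -0.096, beside 0.002 over all tested genes. With the length and GC content offsets the member median was -0.046 and 24 members were below 0, and the same median and number were found without WT replicate 1 and A178D replicate 4. Across the 41 genes, which are not independent replicates, log2 transcript length and log2 fold change had a Pearson correlation of -0.27, beside -0.20 over all tested genes. The member value was 0.05 with the offsets, which are built to remove such a trend, so its fall shows nothing further. With the offsets, 2 members (*Flna*, *Lims2*; 4.88%) were called lower and 1 (*Flnc*; 2.44%) higher, beside 2.12% and 1.58% of all tested genes. DESeq2 called 3 members lower (*Flna*, *Lims2*, *Itga8*; 7.32%) and none higher, beside 2.88% and 2.21% of the genes it tested.

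**Figure D1:**
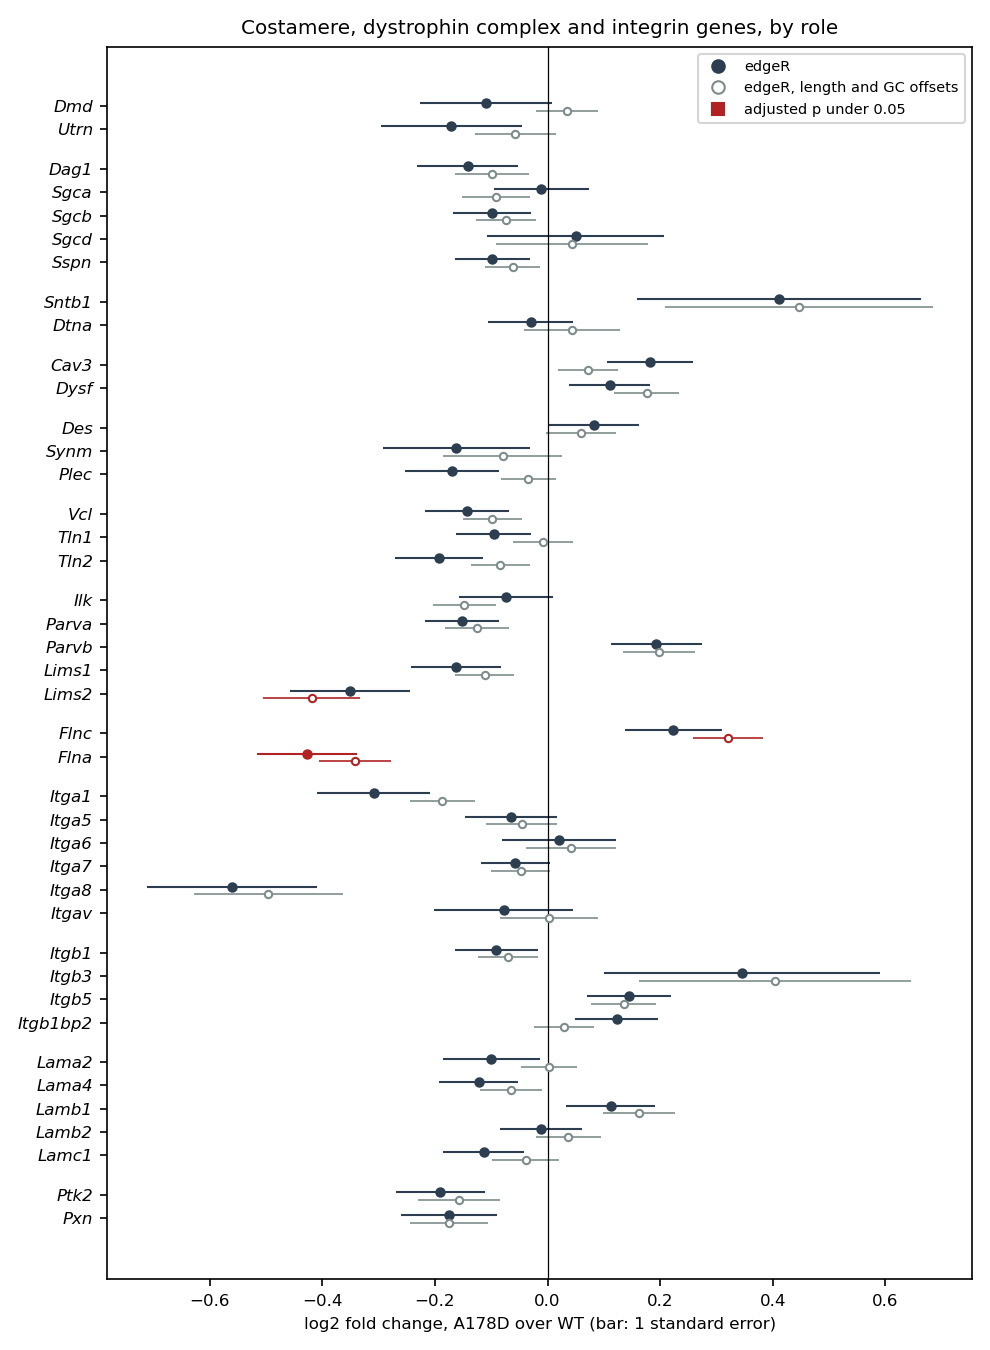
Log2 fold change (A178D over WT, horizontal axis) of the 41 costamere genes, grouped by role from dystrophin at the top to the adhesion kinase at the bottom. Filled points are edgeR estimates and open points those with length and GC content offsets, bars are 1 standard error, and red marks an adjusted p under 0.05, which *Flna* has in both fits and *Lims2* and *Flnc* only with the offsets.

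The filamins crosslink actin and attach it to membrane proteins, and filamin C is the form of striated muscle. *Flna* (ENSMUSG00000031328) lies on chromosome X from 74223461 to 74249820. It stood at 315, 311 and 261 CPM in WT replicates 1, 3 and 4, and at 195.6, 241, 234 and 209 CPM in A178D replicates 1 to 4. All 4 A178D hearts were below all 3 WT hearts. Group means were 295.5 ± 29.9 CPM (SD, n = 3) and 219.7 ± 21.04 CPM (SD, n = 4), a log2 fold change of -0.43 (standard error 0.089, edgeR adjusted p = 0.0230). Among the 182 genes called lower, *Flna* ranked 95 by its p, and its level per length was at the 85.7 percentile of tested genes. The call was lost when WT replicate 1 (edgeR adjusted p = 0.0511), WT replicate 3 (0.141) or A178D replicate 1 (0.0884) was left out. Over all alternatives the adjusted p of *Flna* ran from 0.00053 to 0.141, and the log2 fold change stayed between -0.51 and -0.38 with each heart left out.

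*Flnc* (ENSMUSG00000068699), on chromosome 6 from 29433256 to 29461883, was at 529, 449.5 and 417 CPM in the WT hearts and at 570.4, 573, 532 and 496 CPM in the A178D hearts. WT replicate 1 was above A178D replicate 4, and these are the libraries with the strongest length trends, so the genotypes overlapped. Its log2 fold change was 0.22 (standard error 0.086, edgeR adjusted p = 0.212) and the gene was not called. With the offsets it was 0.32 (standard error 0.062, edgeR adjusted p = 0.0152). *Flnc* was also called without WT replicate 1 (log2 fold change 0.33, edgeR adjusted p = 0.0440) and without both of these libraries (0.37, edgeR adjusted p = 0.00369), within a range of 0.00369 to 0.49 over all alternatives.

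A ratio of related genes within a heart does not depend on scaling between libraries. The *Flna* to *Flnc* ratio of CPM per kb was 0.636, 0.739 and 0.669 in the WT hearts and 0.366, 0.449, 0.469 and 0.451 in the A178D hearts. Every A178D heart thus had less *Flna* for its *Flnc* than any WT heart, a difference of -0.66 in the mean log2 ratio. The exact two-sided permutation p was 0.0286, the smallest that 3 against 4 hearts allow, and 0.1 after adjustment over the 7 pairs of related genes compared. At least 5 of the 7 pairs would have had to reach this smallest p for an adjusted p under 0.05. With the length and GC content offsets the difference was also -0.66.

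Parvins are actin-binding partners of ILK, and the beta form is typical of heart and skeletal muscle. The *Parva* to *Parvb* ratio was 0.411, 0.493 and 0.513 in the WT hearts and 0.372, 0.348, 0.39 and 0.365 in the A178D hearts, again with no overlap. The difference in the mean log2 ratio was -0.35 (exact two-sided permutation p = 0.0286, adjusted p = 0.1). In the other 5 pairs the genotypes overlapped and the exact permutation p was between 0.143 and 0.943. Utrophin to dystrophin (*Utrn*/*Dmd*) had a mean log2 ratio of -0.37 with an SD of 0.17 in WT, and of -0.44 with an SD of 0.07 in A178D hearts. The remaining differences were 0.11 for the talins *Tln1*/*Tln2*, 0.18 for the PINCH genes *Lims1*/*Lims2*, 0.13 for the laminins *Lamb1*/*Lamb2* and -0.01 for *Lama4*/*Lama2*.

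**Figure D2:**
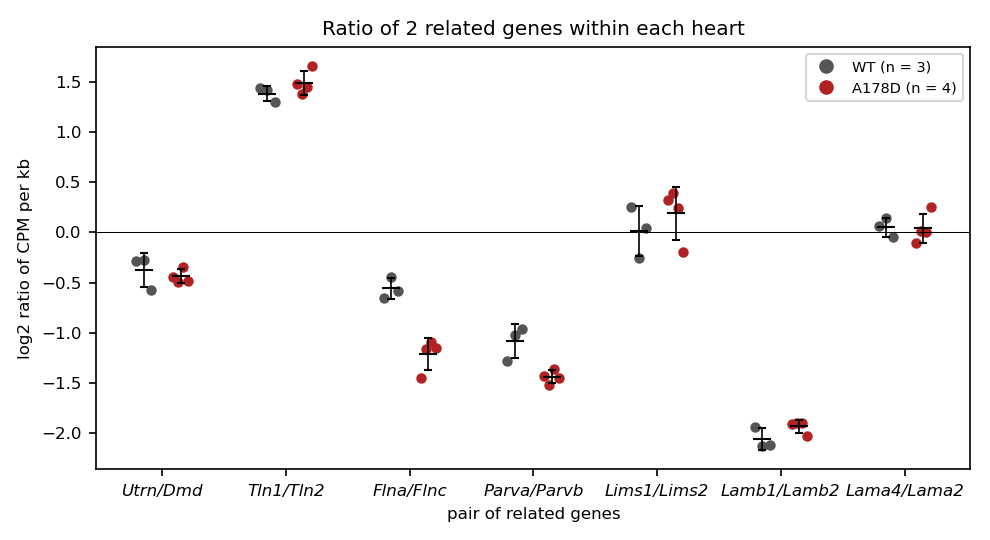
Log2 ratio of CPM per kb (vertical axis) of 7 pairs of related genes in each of the 3 WT (grey) and 4 A178D (red) hearts, with mean and SD in black. The genotypes are separate for *Flna*/*Flnc* and *Parva*/*Parvb* and overlap in the other 5 pairs.

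Dystrophin (*Dmd*) binds actin at one end and dystroglycan at the other, and utrophin (*Utrn*) is its relative. *Dmd* was at 222, 194 and 229 CPM in the WT hearts and at 218, 216, 214 and 148 CPM in the A178D hearts. A178D replicate 4 was the one low heart, and the other 3 lay within the WT range. The log2 fold change was -0.11 (standard error 0.117, edgeR adjusted p = 0.682), 0.035 with the offsets and 0.007 without A178D replicate 4. *Utrn* had a log2 fold change of -0.17 (standard error 0.125). A178D replicate 4 was low here too, at 88.5 CPM against 128 to 140.02 CPM in the other A178D hearts, and the log2 fold change of *Utrn* was -0.04 without it and -0.06 with the offsets.

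Dystroglycan (*Dag1*) carries the sugars that bind laminin, and the sarcoglycans with sarcospan stabilize it in the membrane. *Dag1* was at 483, 412 and 417 CPM in WT and at 407, 444, 392 and 342 CPM in A178D hearts. The genotypes overlapped (log2 fold change -0.14, edgeR adjusted p = 0.465). Alpha-sarcoglycan (*Sgca*) was at 179.8, 188 and 196 CPM in WT and at 180.3, 182, 167 and 217 CPM in A178D hearts, so that the WT range lay inside that of A178D (log2 fold change -0.01, standard error 0.085). The log2 fold changes of *Sgcb*, *Sgcd* and *Sspn* were -0.10, 0.05 and -0.10, and none of these 5 genes had an unadjusted p under 0.05.

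Syntrophins and dystrobrevin are the cytoplasmic scaffold of dystrophin. Beta-1-syntrophin (*Sntb1*) was near the lower end of the tested range, at 1.69, 2.24 and 2.81 CPM in WT and 3.99, 3.23, 2.67 and 1.95 CPM in A178D hearts. Its log2 fold change of 0.41 had a standard error of 0.252 and an edgeR adjusted p of 0.446, and the hearts overlapped. With each heart left out it ranged from 0.24 to 0.59, the lowest without WT replicate 1 or A178D replicate 1. *Dtna* stood at -0.03. Caveolin-3 (*Cav3*), the coat protein of muscle caveolae, was at 61.7, 64.8 and 63.8 CPM in WT and at 72.2, 70.5, 65.6 and 79.6 CPM in A178D hearts. All A178D hearts were above all WT hearts, A178D replicate 3 only just. The log2 fold change was 0.18 (standard error 0.077, edgeR adjusted p = 0.251) and 0.07 with the offsets. Dysferlin (*Dysf*), which serves membrane repair, had a log2 fold change of 0.11. With each heart left out that of *Dysf* ranged from 0.06 without WT replicate 4 to 0.18 without WT replicate 1. With the offsets it was 0.176 (edgeR adjusted p = 0.118).

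Desmin (*Des*) forms the intermediate filaments that tie Z-discs to the costamere, and synemin (*Synm*) and plectin (*Plec*) attach them there. *Des* was the most abundant member per length, at the 99.5 percentile of tested genes by CPM per kb. It was at 2417, 2509 and 2438 CPM in WT and at 2361, 2500.3, 2518 and 3024 CPM in A178D hearts. A178D replicate 4 was the high heart here, and the others lay close to WT (log2 fold change 0.08, standard error 0.080). *Plec*, the longest member transcript at 15455 nt, had a log2 fold change of -0.17, and of -0.03 with the offsets. For *Synm* the value was -0.16 (standard error 0.131).

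Talins bind the cytoplasmic tails of integrin beta subunits, and vinculin (*Vcl*) reinforces the link of talin to actin. *Vcl* was at 244, 217 and 215 CPM in WT and at 205, 205, 218 and 189 CPM in A178D hearts, with overlap through A178D replicate 3 (log2 fold change -0.14, standard error 0.074, edgeR adjusted p = 0.351). With each heart left out the log2 fold change of *Vcl* ranged from -0.18 to -0.08, the latter without WT replicate 1. It was -0.045 without both WT replicate 1 and A178D replicate 4. Talin-2 (*Tln2*), the form enriched in heart muscle, was at 156, 159 and 154 CPM in WT and at 137, 149, 142 and 119 CPM in A178D hearts. Its genotypes did not overlap, and A178D replicate 4 was the lowest. The log2 fold change of -0.19 (standard error 0.078, edgeR adjusted p = 0.233) was -0.08 with the offsets. *Tln1* stood at -0.10.

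ILK binds integrin beta tails and assembles with PINCH (*Lims1*, *Lims2*) and parvin into 1 complex. *Ilk* was at 94.9, 104.8 and 93.9 CPM in WT and at 91.3, 88.6, 86.0 and 106 CPM in A178D hearts, where A178D replicate 4 was the highest of all 7 (log2 fold change -0.07, standard error 0.083). With the offsets the log2 fold change of *Ilk* was -0.15 (edgeR adjusted p = 0.176), and without A178D replicate 4 it was -0.14 (0.289). *Lims2* was at 70.0, 95.0 and 90.6 CPM in WT and at 63.2, 61.9, 65.1 and 77.4 CPM in A178D hearts. Only A178D replicate 4 was above WT replicate 1, so the genotypes overlapped through these libraries. For *Lims2* the log2 fold change was -0.35 (standard error 0.106, edgeR adjusted p = 0.110) and the gene was not called. With the offsets it was -0.42 (edgeR adjusted p = 0.0188), without WT replicate 1 -0.47 (0.0144), without A178D replicate 4 -0.43 (0.0373) and without both -0.55 (0.000231), and DESeq2 gave an adjusted p of 0.0390. The edgeR and DESeq2 adjusted p of *Lims2* ranged from 0.000231 to 0.378 over all alternatives.

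*Parva* was at 67.8, 71.0 and 66.5 CPM in WT and at 63.2, 60.3, 62.5 and 60.3 CPM in A178D hearts. All 4 A178D hearts were below WT, by a small amount (log2 fold change -0.15, standard error 0.066, edgeR adjusted p = 0.267). *Parvb* was at 139.9, 122 and 110.2 CPM in WT and at 144, 147, 136 and 140.2 CPM in A178D hearts, with WT replicate 1 inside the A178D range. Its log2 fold change was 0.19 (standard error 0.081, edgeR adjusted p = 0.251), and without WT replicate 1 and A178D replicate 4 it was 0.29 with a call (edgeR adjusted p = 0.0218). Without WT replicate 4 the log2 fold change of *Parvb* was 0.12 (edgeR adjusted p = 0.564). The range of its adjusted p over all alternatives was 0.0218 to 0.564. *Lims1* stood at -0.16.

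Integrins are alpha-beta pairs, and alpha-7 with beta-1 is the laminin receptor of striated muscle. *Itga7* was at 259.7, 253 and 254 CPM in WT and at 246, 252, 239.6 and 246 CPM in A178D hearts. Although the genotypes did not overlap, the log2 fold change was only -0.06, below its standard error of 0.061. Its partner *Itgb1* was at 451, 459.7 and 494 CPM in WT and at 475, 437, 449 and 396.5 CPM in A178D hearts, with overlap (log2 fold change -0.09, standard error 0.074).

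Integrin alpha-8 (*Itga8*), a receptor for RGD ligands found in smooth muscle and other mesenchymal cells, was a low-level member, at 11.2, 8.09 and 9.40 CPM in WT and 5.70, 7.87, 6.72 and 5.50 CPM in A178D hearts. All 4 A178D hearts were below WT, A178D replicate 2 by little. Its log2 fold change was -0.56 (standard error 0.151), and the edgeR adjusted p of 0.0732 missed the threshold. Without WT replicate 1 the log2 fold change of *Itga8* was -0.43, and without both WT replicate 1 and A178D replicate 4 it was -0.36 (edgeR adjusted p = 0.210). DESeq2 (adjusted p = 0.0227), edgeR with no filter on low counts (0.0478) and edgeR without A178D replicate 2 (0.0492) called it, within a range of 0.0227 to 0.21 over all alternatives. The collagen receptor subunit alpha-1 (*Itga1*) was at 59.6, 60.5 and 56.97 CPM in WT and at 49.5, 51.4, 51.9 and 37.6 CPM in A178D hearts, with no overlap and A178D replicate 4 far below. Its log2 fold change was -0.31 (standard error 0.100, edgeR adjusted p = 0.134) and -0.19 with the offsets. The other alpha subunits had log2 fold changes of -0.06 (*Itga5*), 0.02 (*Itga6*) and -0.08 (*Itgav*).

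Among the other beta subunits, *Itgb5* had a log2 fold change of 0.14 (standard error 0.075). *Itgb3* was at or under 2.96 CPM in all hearts and had a log2 fold change of 0.34 with a standard error of 0.245. With each heart left out it ranged from 0.17 without WT replicate 4 to 0.63 without WT replicate 1. Melusin (*Itgb1bp2*), a chaperone that binds the beta-1 tail in muscle, stood at 0.12. None of the 4 beta subunit and melusin genes had an unadjusted p under 0.05 without the offsets. With the offsets the log2 fold change of *Itgb5* was 0.135 (edgeR unadjusted p = 0.0384, adjusted p = 0.241).

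Laminin alpha-2 (*Lama2*), with beta and gamma chains the main laminin around cardiomyocytes, was at 209, 200.03 and 200.2 CPM in WT and at 202, 202, 197 and 157 CPM in A178D hearts. As for *Dmd*, A178D replicate 4 was far below the rest, and the other 3 were close to WT (log2 fold change -0.10, standard error 0.086, and 0.00 with the offsets). Log2 fold changes of the other laminin members were -0.12 (*Lama4*), 0.11 (*Lamb1*), -0.01 (*Lamb2*) and -0.11 (*Lamc1*), none with an unadjusted p under 0.05. With each heart left out, *Lamb1* ranged from 0.03 to 0.20 and *Lamc1* from -0.15 to -0.05. With the offsets the log2 fold change of *Lamb1* was 0.16 (edgeR unadjusted p = 0.0248, adjusted p = 0.192). Focal adhesion kinase (*Ptk2*) signals from clustered integrins, and paxillin (*Pxn*) is its scaffold. *Ptk2* was at 43.4, 46.0 and 40.02 CPM in WT and at 40.6, 36.3, 37.3 and 36.9 CPM in A178D hearts, where A178D replicate 1 was above WT replicate 4. Its log2 fold change was -0.19 (standard error 0.079, edgeR adjusted p = 0.242). *Pxn* stood at -0.17 (edgeR adjusted p = 0.330), and without WT replicate 1 and A178D replicate 4 at -0.28 (0.0441), within a range of 0.0441 to 0.653 over all alternatives.

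**Figure D3:**
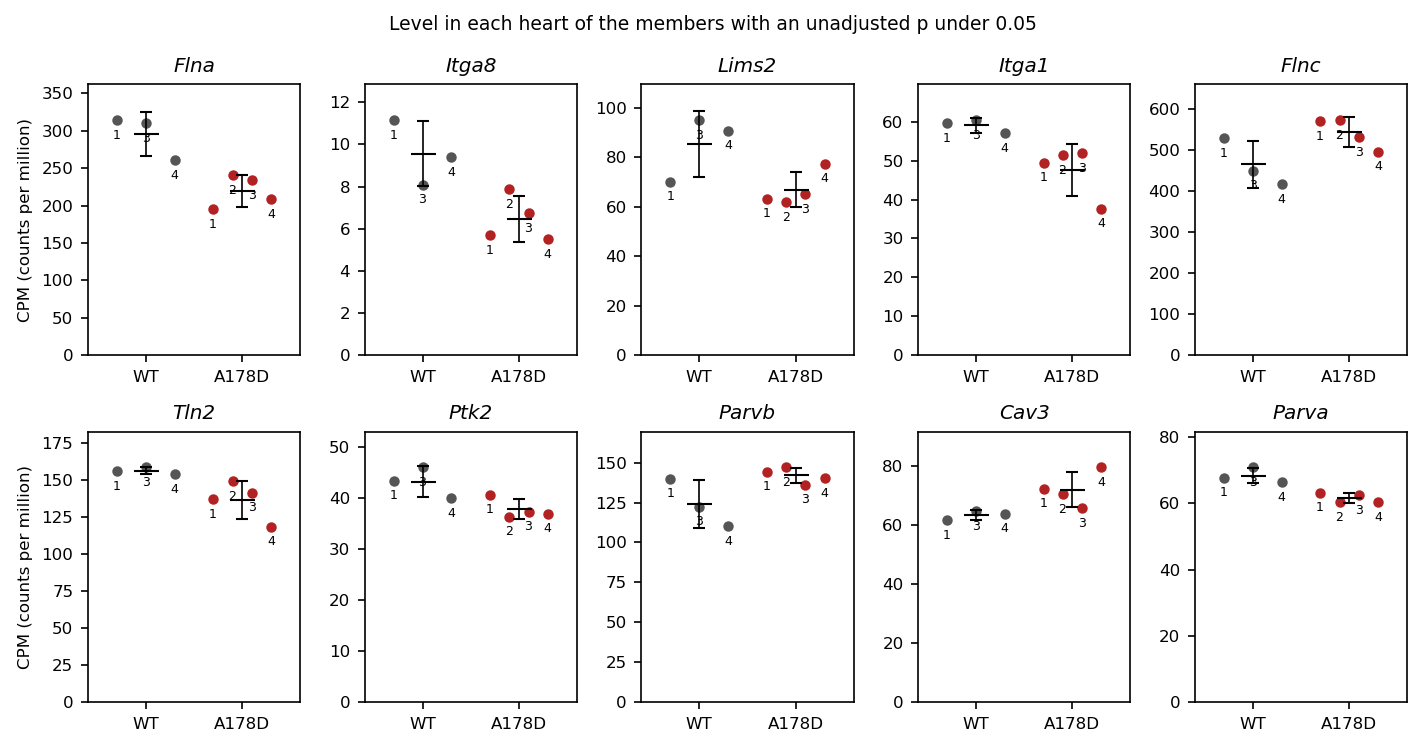
CPM (vertical axes, from 0) in each heart of the 10 members with an unadjusted p under 0.05, with replicate numbers beside the points and mean and SD in black. WT hearts are grey and A178D hearts red. *Flna*, *Itga8*, *Itga1*, *Tln2* and *Parva* are lower and *Cav3* is higher in A178D without overlap, while *Lims2*, *Flnc*, *Ptk2* and *Parvb* overlap.

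Markers of vascular smooth muscle were lower in A178D hearts. Filamin A and the alpha-8 and alpha-1 integrins are found in this cell type, and these 3 members are named here after their values were seen. Of these 3 members *Flna* was called, and *Itga8* and *Itga1* were not. Other members also found in smooth muscle had log2 fold changes of -0.143 (*Vcl*), -0.096 (*Tln1*), -0.065 (*Itga5*), -0.078 (*Itgav*), 0.145 (*Itgb5*) and 0.112 (*Lamb1*), none of them called. All 7 smooth muscle markers tested were below 0 and 6 were called lower (*Myh11*, *Acta2*, *Tagln*, *Cnn1*, *Lmod1* and *Mylk*), with a median log2 fold change of -0.62. Their summed level was 708, 700.0 and 658 CPM in the WT hearts and 428, 510.4, 530.4 and 519 CPM in the A178D hearts, and the most abundant, *Smtn*, was the one not called. A178D replicate 1 was lowest in this sum and in *Flna*, while *Itga8* and *Itga1* were lowest in A178D replicate 4. The 6 pericyte markers, led by *Abcc9*, were all below 0 with none called by edgeR (3 with an unadjusted p under 0.05, median -0.28). With the offsets 2 were called lower (*Rgs5*, *Pdgfrb*), and DESeq2 called 3 lower (these and *Notch3*). Their sum was 1069, 1097 and 1052 CPM in WT and 917, 966, 1026 and 791 CPM in A178D hearts. No marker of either list was at 0. The part of these cell types in the results for *Flna*, *Itga8* and *Itga1* was not tested, and in whole tissue fewer cells of a type and less RNA per cell cannot be told apart.

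Markers of other cell types gave no calls by edgeR without the offsets. The median log2 fold change was -0.02 over 8 cardiomyocyte markers, 0.04 over 7 fibroblast markers, 0.08 over 7 endothelial markers and 0.20 over 7 macrophage markers. With the offsets 2 fibroblast markers were called higher (*Col1a1*, *Col1a2*), of which DESeq2 called *Col1a1*, and neither fit called a cardiomyocyte, endothelial or macrophage marker. With an unadjusted p under 0.05, 1 cardiomyocyte marker (*Actc1*), 3 fibroblast markers (*Col1a1*, *Col1a2*, *Lum*) and 2 macrophage markers (*Adgre1*, *C1qa*) were higher and 1 macrophage marker (*Cd163*) was lower. Schwann cell markers (median 0.57, 4 tested), the 4 of 7 skeletal muscle markers tested (-0.05), the 1 of 4 epicardial markers tested (*Wt1*, -0.29) and the erythrocyte markers (0.15, 3 genes in 4 entries, all above 0) had no unadjusted p under 0.05 and no call with the offsets or by DESeq2.

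Other genes of the same pathways were also compared. Of 22 further partners of the dystrophin complex, 18 were tested, with 1 called higher and 1 lower and a median of -0.04. DESeq2 also called *Trim72* higher and *Cav1* lower. *Cavin4*, a muscle caveolar coat protein, rose from 158, 123 and 128 CPM in WT to 208, 176.5, 173 and 176 CPM in A178D hearts, with no overlap (log2 fold change 0.43, standard error 0.095, edgeR adjusted p = 0.0330). Without WT replicate 3 or 4 its adjusted p was 0.189 and 0.151, and without A178D replicate 1, 2 or 3 it was 0.114, 0.0567 and 0.0586, so these 5 fits lost the call. *Ahnak*, a giant membrane scaffold that binds dysferlin, fell (log2 fold change -0.43, standard error 0.092, edgeR adjusted p = 0.0298), without a call with the offsets (log2 fold change -0.29, adjusted p = 0.106). *Ahnak* was also not called without WT replicates 3 or 4 or A178D replicates 1 or 2, where the adjusted p was 0.159, 0.137, 0.107 and 0.0660. The adjusted p ranged from 0.000917 to 0.189 for *Cavin4* and from 0.000875 to 0.159 for *Ahnak* over all alternatives.

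The genes that place sugars on dystroglycan gave 0 calls by edgeR in 17 of 18 tested, with 1 unadjusted p under 0.05 (*Dpm3*, log2 fold change 0.29) and a median of -0.01, and none with the offsets or by DESeq2. The list of other integrin subunits also held the beta-like gene *Itgbl1*, which is not a subunit. This list gave 0 calls in 18 tested, with 4 higher at an unadjusted p under 0.05, *Itgbl1* among them, and a median of 0.09. The lowest p among them was that of *Itgbl1* (log2 fold change 0.48, edgeR adjusted p = 0.110), the 1 gene of this list that DESeq2 called, and none was called with the offsets. Spectrins and ankyrins line the membrane from inside, and their list also held *Epb41l1*, *Epb41l2* and *Epb41l3*, which are neither. This list gave 0 calls in 11 tested, with 1 higher and 4 lower at an unadjusted p under 0.05. The median of the list was -0.16, and -0.06 with the offsets, and *Epb41l2* had the lowest p (log2 fold change -0.26, edgeR adjusted p = 0.0813). With the offsets 1 was called, *Ank1* (higher, log2 fold change 0.32), and DESeq2 called 2 lower (*Epb41l2*, *Sptbn1*).

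Of 21 other laminin and basement membrane genes, 20 were tested and 2 were called, both lower, with a median of -0.04. Laminin alpha-5 (*Lama5*), a chain typical of vessel walls and epithelia, fell from 238, 295 and 287 CPM in WT to 163, 198, 170.4 and 161 CPM in A178D hearts. All A178D hearts were well below all WT hearts (log2 fold change -0.66, standard error 0.092, edgeR adjusted p = 0.00406), and *Lama5* was called in all 7 fits with a heart left out. *Lamb3* was at 16.4, 24.2 and 22.5 CPM in WT and at 14.1, 12.9, 12.7 and 16.5 CPM in A178D hearts, with WT replicate 1 just below A178D replicate 4 (log2 fold change -0.59, standard error 0.135, edgeR adjusted p = 0.0382). The call of *Lamb3* was lost without WT replicate 3 or 4 or A178D replicate 1, 2 or 3, where the adjusted p was 0.207, 0.155, 0.105, 0.0951 and 0.101, and with the replicate block without (0.0617) or with the offsets (0.0842). Its range over all alternatives was 0.000228 to 0.207. At an unadjusted p under 0.05, 4 of the 20 were lower (*Lama5*, *Lamb3*, *Vtn*, *Fn1*) and 4 higher, among them *Col4a1* (0.42) and *Col4a2* (0.38), the main type IV collagen chains, which are named here after their values were seen. Neither was called (edgeR adjusted p = 0.0555 and 0.121), and with the offsets both were (log2 fold changes 0.49 and 0.45, edgeR adjusted p = 0.00649 and 0.0191), as they were by DESeq2. The offsets also gave a call for *Vtn* (lower, log2 fold change -0.36, edgeR adjusted p = 0.0335).

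Members lie on many chromosomes, and 3 are on chromosome 2 with *Ttn*. *Itga6* is 4.8 Mb from *Ttn*, *Itgav* 6.7 Mb and *Itga8* 64.4 Mb. Of 94 genes tested within 10 Mb of *Ttn*, 3 were called (*Stk39*, *Tfpi* and *Ttc30b*), or 3.19%, beside 2.35% of all tested genes, and neither *Itga6* nor *Itgav* was among them. Exons of some members overlap those of neighbours on the opposite strand, by 2106 bases for *Ilk* with *Taf10* (28.2 CPM), 2090 bases for *Vcl* with *Ap3m1* (43.0 CPM), 360 bases for *Tln1* with *Creb3* (28.7 CPM) and 355 bases for *Ilk* with *Rrp8* (15.96 CPM). Shorter overlaps of this kind are 188 bases for *Lims2* with *Gpr17* (4.03 CPM), 84 for *Synm* with *Ttc23* (10.96 CPM) and 9 for *Itga7* with *Mettl7b*. *Plec* shares 205 bases with *Parp10* on its own strand. The libraries were stranded, but whether the counting used strand is not given in the sources used here, so the counts of these members may hold reads of their neighbours. *Flna*, *Flnc* and *Itga8* have no such overlap with another gene of the table.

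RefSeq promoter sequences (GRCm38.p6, 250 bases before to 50 after a transcript start) were found for 27 of the 41 members, with 35 starts, and not for *Dtna*, *Itga6*, *Itga7*, *Itgb1bp2*, *Itgb3*, *Lama4*, *Lamc1*, *Lims2*, *Parva*, *Plec*, *Ptk2*, *Pxn*, *Sntb1* and *Tln2*. The letters CATTCC, the M-CAT motif bound by TEAD factors, were searched on both strands and were in 9 of these 35 promoters, from 7 members (*Cav3*, *Flna*, *Flnc*, *Itgb1*, *Sgcd*, *Sspn* and *Vcl*), and in 14.7% of all 32851 promoters. The CArG box, bound by serum response factor, was in 3 of the 35 member promoters (*Dmd*, *Lama2*, *Vcl*) and in 1.63% of all promoters. The MEF2 site was in 2 of the 35 (*Dmd*, *Lims1*) and in 3.19% of all promoters. The stretches of both filamin genes are shown because their ratio had the largest difference of the 7 pairs, with the motif in capitals. That of *Flna* is chrX:74246645-74246710 on the minus strand, before a transcript start inside the annotated gene, and that of *Flnc* is chr6:29433122-29433187 on the plus strand.
Flna: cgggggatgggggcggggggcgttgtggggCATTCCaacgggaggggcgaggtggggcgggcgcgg
Flnc: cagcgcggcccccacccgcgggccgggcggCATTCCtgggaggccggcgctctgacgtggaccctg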

How the data were processed

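RNA of 7 left ventricles was sequenced as stranded poly(A) libraries. The submitters' processing notes name bcl2fastq 2.18.0.12, HISAT2 2.1.0, SAMtools 1.6, DESeq2 1.26.0 and build GRCm38. The counting program and annotation are not given in the sources used here. The authors deposited raw counts per gene, which were used, and a table of scaled counts, which was not used here. Of 21257 entries, 223 that shared the counts of another in all libraries (at least 30 in sum) and 107 that repeated an identifier at 0 in all libraries were removed, leaving 20927 genes. Names, positions and lengths came from GENCODE M21 (GRCm38).

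A178D was compared with WT in edgeR 4.0.16 (R 4.3.3) with TMM, glmQLFit, glmQLFTest and no covariate. CPM per kb divides by the longest coding transcript. Related genes were compared by exact two-sided permutation of the log2 ratio over 7 hearts. Alternatives used DESeq2 1.42.0, its size factors, limma-voom (limma 3.58.1), other filters, halved counts, replicate numbers as a block, offsets for length and GC content (mgcv 1.9.3, basis size 6), and fits leaving out hearts. Both depth and the small groups limit precision, and a standard error includes each. The edgeR standard error was taken as the size of the log2 fold change over the square root of its quasi-likelihood F statistic.

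Every member is named by role, with the value in each heart for members called, members with an unadjusted p under 0.05 and 1 member or more of each role. Of the other lists given, called genes are named, or the gene with the lowest p. The members and lists were chosen with earlier results of these data known.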

Additional observations from a re-analysis of the deposited data

Results flagged for a closer look

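In 4 of 46 genes, 1 of the 4 A178D hearts lay far from the others by Dixon's criterion, which divides the gap to the nearest heart by the whole range, and chance gives about 1 in 20. In A178D replicate 4, *Dmd* was at 148 CPM against 214 to 218 in the other A178D hearts, *Sgcd* at 22.9 against 38.1 to 40.1, and *Lama2* at 157 against 197 to 202. This library is the one whose levels fell most with transcript length (-0.134 on the log2 scale per doubling), and the part of that trend in these values was not tested. In A178D replicate 1, *Cavin4* was at 208 CPM against 173 to 176.5. The groups of 3 WT hearts were not tested.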

How the results depend on the processing

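Of 855 log2 fold changes of named genes over the alternatives, 777 kept their direction and their side of the threshold, 38 changed direction, 15 gained a call and 25 lost one. In 28 of the 41 members no alternative changed the direction. DESeq2 called 289 genes higher and 377 lower, with 3 members lower. With length and GC content offsets these were 219 and 295, with 1 member higher and 2 lower, and with the replicate block added to the offsets 209 and 197, with again 1 and 2 members. With no low-count filter 190 genes were called higher and 246 lower, with 2 members lower. An adjusted p under 0.01 left 24 and 40 genes and 0 members. With WT 1 and A178D 4 both left out, chosen after seeing the data, 353 genes were called higher and 407 lower, with 2 members higher and 3 lower. Leaving out each heart in turn gave 22 to 215 genes higher, 31 to 238 lower, 0 to 1 member higher and 0 to 2 lower, the lowest without WT replicate 3 and the highest for all genes without WT replicate 1. The replicate block called 124 and 147 genes and, of the members, 1 (*Flna*).

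The replicate block changed the direction of *Sgcd* (-0.050), *Dtna* (0.005) and *Itga6* (-0.002). The offsets changed that of *Dmd* (0.035), *Dtna* (0.044), *Itgav* (0.002), *Lama2* (0.002) and *Lamb2* (0.037). Offsets with the block changed *Dmd* (0.039), *Sgcd* (-0.042), *Dtna* (0.099), *Tln1* (0.017), *Lama2* (0.006) and *Lamb2* (0.066). Without both libraries *Dmd* (0.031), *Utrn* (0.030), *Dag1* (0.001), *Des* (-0.008), *Synm* (0.078), *Itgav* (0.065) and *Lama2* (0.001) changed direction. With each heart left out, the range spanned 0 for *Dmd* (-0.18 to 0.007), *Sgca* (-0.091 to 0.038), *Sgcd* (-0.042 to 0.207), *Dtna* (-0.080 to 0.009), *Synm* (-0.269 to 0.039), *Itga6* (-0.043 to 0.109), *Itgav* (-0.161 to 0.024), *Lamb2* (-0.070 to 0.036) and the *Lama4*/*Lama2* log2 ratio difference (-0.082 to 0.035). The cause was not tested. None of these had an adjusted p under 0.05.

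Depth left 38 of the 41 members with at least 500 counts in every library, and the lowest count was 59. The pairs of replicates with the same number had correlations of 0.003, -0.040 and -0.042 across genes. These gave no sign that the numbers pair the hearts, but so few pairs cannot exclude it. With 1 heart left out the exact test cannot go below 0.0667 or 0.10.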
